A study of Mus musculus with 17 samples.

Results

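Wounded skin of C57/BL6j mice taken 9 days after injury with ionizing radiation (3 libraries) was set against wounded skin taken 6 days after injury without radiation (2 libraries), so 5 of the 17 libraries of the series carry the comparison. The libraries were chosen by their labels of treatment and day, with no measured value. All mice had the same strain label and all were wounded. The labels used here do not state the radiation dose, the wound type, or the age and sex of the mice, and they do not say whether libraries of a group came from separate animals. The p-values of single genes therefore measure a spread between libraries, which was estimated over all 17 libraries and not only the 5 compared. Unirradiated wounds at day 9 (3 libraries) and day 3 (2 libraries) were placed beside the main comparison, which asks whether a late irradiated wound resembles an earlier unirradiated stage.

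A skin wound passes through inflammation, a phase in which keratinocytes, fibroblasts and vessels grow into the defect, and a phase of matrix deposition and remodelling. Radiation is known to slow this course in skin. It damages DNA and activates p53, a transcription factor whose targets arrest the cell cycle or trigger cell death, and it can induce interferon, a signal that switches on antiviral genes. Dendritic cells, Langerhans cells, B cells and activated macrophages carry class II molecules, which present peptides to helper T cells.

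Levels are given as FPKM, fragments scaled to transcript length and to the library's depth, and changes as log2 of FPKM + 1, irradiated minus control. Each library held between 27404044 and 29604889 assigned fragments. The libraries showed skin markers: Krt14 lay at 8320 to 9672 FPKM in irradiated day 9 and 8384 to 12730 FPKM in control day 6 wounds, and Col1a1 at 1328 to 2829 and 665 to 1713 FPKM. Skeletal muscle RNA was present as well, with Acta1 at 535 to 1265 FPKM in irradiated day 9 and 1137 to 1545 FPKM in control day 6 wounds. Replicate 1 of control day 6 stood apart from the other 4 libraries. Its 10 highest genes took 19.5% of summed FPKM, against 13.2% to 14.1% in the others, and its S100a9, a gene on the neutrophil list, reached 14580 FPKM against 1468 FPKM in replicate 2. Ly6g, another neutrophil marker, was low in both control day 6 libraries, at 0.55 and 1.71 FPKM. The wound-edge keratinocyte list also split between them, at 13795 and 48807 summed FPKM. Which cells held the S100a9 RNA was not tested. Mitochondrial genes took 8.33% to 8.84% of summed FPKM in irradiated day 9 and 10.2% to 10.9% in control day 6 wounds. Values without replicate 1 of control day 6 follow the main ones of many genes and lists below.

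By distance over the 14004 genes tested, the irradiated day 9 mean lay nearest to the control day 6 mean. The root mean square difference of the group means on the log2 scale was 0.858 to control skin of day 0, 0.414 to control day 3, 0.333 to control day 6 and 0.417 to control day 9. Between libraries the order was less even. Replicates 2 and 3 of irradiated day 9 were nearest to replicate 2 of control day 6, at 0.345 and 0.398. Replicate 1 was nearest to replicate 3 of control day 9, at 0.445, and lay at 0.518 and 0.516 from the control day 6 libraries. The 2 control day 6 libraries, of which replicate 1 stood apart, differed from each other by 0.46. The distances of irradiated replicates 2 and 3 to them, 0.345 to 0.451, were no larger. That yardstick is wide, since the same replicates lay at 0.409 to 0.464 from control day 3 libraries. The control day 6 libraries themselves lay at 0.406 to 0.486 from control day 3. Within irradiated day 9 the distances were 0.228 to 0.377. These distances are a description, since genes are not replicates.

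**Figure D1:**
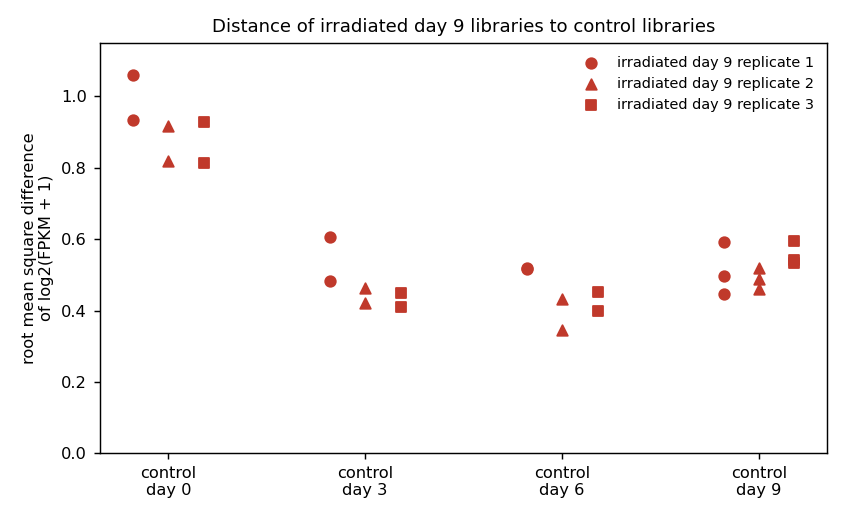
Root mean square difference of log2(FPKM + 1) over 14004 genes (vertical axis) between each irradiated day 9 library (marker shape) and each control library, by control day (horizontal axis). Day 0 libraries lie farthest, at 0.813 to 1.06, and the lowest point, 0.345, is between irradiated day 9 replicate 2 and a control day 6 library.

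The unirradiated time course gave a scale on which to place these wounds. Between control day 9 and control day 3, 2541 genes (18.1% of those tested) passed an adjusted p of 0.05 in limma, 1062 of them higher and 1479 lower at day 9. On the line through the means of these genes, with 0 at control day 3 and 1 at control day 9, the irradiated day 9 libraries lay at 0.652, 0.509 and 0.382, against 0.291 and 0.449 for control day 6. The groups overlapped, since the lowest irradiated library lay below the higher control library. The irradiated day 9 mean was 0.514 ± 0.135 (SD, n = 3) and the control day 6 mean 0.37 ± 0.112 (SD, n = 2). The difference of 0.144 had an exact two-sided permutation p of 0.4, and this design cannot give a p below 0.2. The control day 9 libraries lay at 0.874 to 1.09, above every irradiated day 9 library. Their mean is 1 by construction, and the genes were chosen for differing between these libraries and control day 3. This gap is therefore not a test. Libraries of irradiated day 9 also left the line, by a root mean square of 0.291 to 0.346 per gene, much as those of control day 6 did (0.318 and 0.351).

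**Figure D2:**
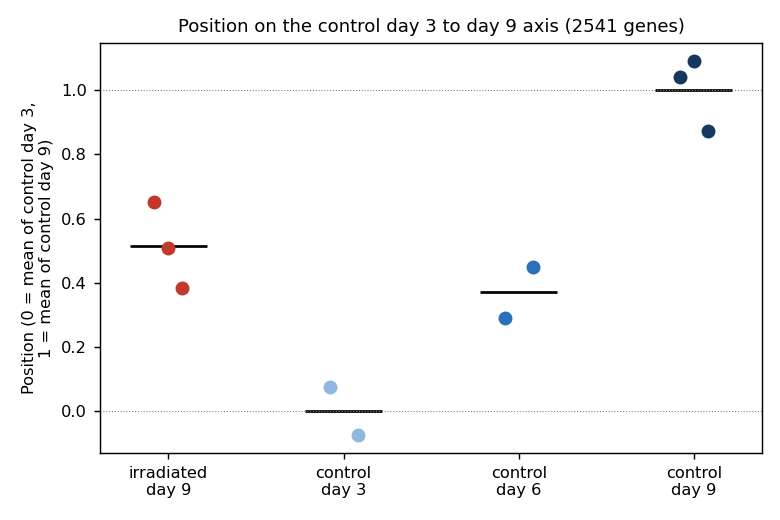
Position of each library (points) and group mean (bars) on the line from control day 3 (0) to control day 9 (1) over 2541 genes. Irradiated day 9 spans 0.382 to 0.652, overlapping control day 6 at 0.291 and 0.449, and control day 9 begins at 0.874. Control day 3 and control day 9 libraries define the line and its genes, so their places are fixed largely by construction.

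Few genes separated irradiated day 9 from control day 6. In limma, 20 of 14004 genes (0.143%) passed an adjusted p of 0.05, 9 higher (0.0643%) and 11 lower (0.0785%), and 1307 had an unadjusted p under 0.05. Of the genes that passed, 45% were higher, and 30.8% to 33.3% were under 3 other scalings. The same irradiated libraries differed in 58 genes (0.414%) from control day 3 and in 668 (4.77%) from control day 9. The median absolute log2 change was 0.15 against control day 3, 0.13 against control day 6 and 0.16 against control day 9, and the median SE was 0.146, 0.146 and 0.131. A fit to only the 5 libraries compared, with no spread shared from other groups, gave no gene past the threshold, with 1307 again at an unadjusted p under 0.05. The count against control day 6 depends on single libraries. Without control day 6 replicate 1 no gene passed (975 with an unadjusted p under 0.05), and 9 passed without replicate 2. Leaving out irradiated replicate 1, 2 or 3 left 6, 7 or 4 genes. Klrb1b, Mcpt8 and Cd7 passed in 4 of these 5 fits, H2-Aa in 2, and no other gene in more than 1. All 20 genes kept their direction in every alternative fit that tested them. Klrb1b, Mcpt8 and Cd7 met the filter on low values through control day 6 alone, since every irradiated library was below 1 FPKM.

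**Figure D3:**
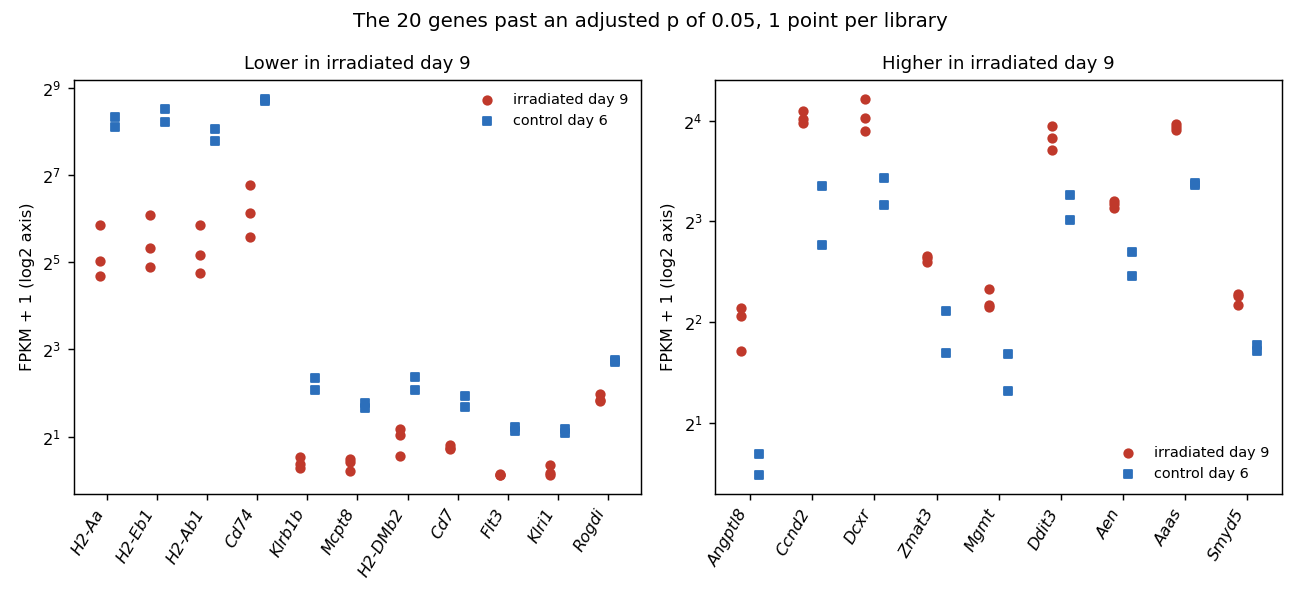
FPKM + 1 (log2 axis) of the 20 genes past an adjusted p of 0.05, 1 point per library, irradiated day 9 as circles and control day 6 as squares. In none of the 20 genes do the groups overlap, but the genes were chosen by this same comparison. Over all genes 16.2% lay above and 10.8% below without overlap. H2-Aa lies at 24.9 to 57.1 FPKM in irradiated day 9 and 274.9 and 319.7 FPKM in control day 6 wounds.

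Among the genes that passed, the largest falls were in class II presentation genes. H2-Aa, H2-Ab1 and H2-Eb1 encode chains of the class II molecules that display peptides, Cd74 the invariant chain that guards them during assembly, and H2-DMb2 a chain of the H2-DM complex that loads the peptide. Of 11 genes on the class II list 9 were tested, and 5 of them fell (0.0785% of all genes did), 8 lay below both control libraries (10.8% of all genes did) and the list's median change was -1.56, against 0.03 over all genes. None of the 9 passed without control day 6 replicate 1, control day 6 replicate 2 or irradiated replicate 3, or with array quality weights, while the median stayed between -1.39 and -1.58 in these fits. Without irradiated replicate 1 or 2, 1 and 4 passed. In bulk tissue, fewer cells of a type and less RNA per cell cannot be told apart.

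H2-Aa (chr17:34282744-34287827, minus strand, mm10) had 24.9, 57.1 and 31.6 FPKM in irradiated day 9 wounds, against 319.7 and 274.9 FPKM in control day 6 wounds. Every irradiated library was far below every control library. The log2 change was -3.02 (SE 0.38, adjusted p = 0.0111), and -2.91 without control day 6 replicate 1, where it no longer passed. H2-Eb1 had 28.5, 67.2 and 39.1 FPKM against 363.6 and 294.4 FPKM, a log2 change of -2.92 (SE 0.40, adjusted p = 0.0173). H2-Ab1 had 25.8, 56.9 and 34.7 FPKM against 264.6 and 219.4 FPKM, a change of -2.67. In each of these genes irradiated replicate 2 was the highest of its group. Cd74 had 46.7, 107.7 and 68.3 FPKM in irradiated day 9 wounds, against 429 and 412 FPKM in control day 6 wounds, a change of -2.57 (SE 0.39, adjusted p = 0.0283). H2-DMb2 was low throughout, at 0.47, 1.26 and 1.05 FPKM against 3.22 and 4.17 FPKM, with a change of -1.30.

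Ciita, the transactivator that class II promoters depend on, had 0.32, 1.22 and 0.46 FPKM in irradiated day 9 wounds, against 3.87 and 3.72 FPKM in control day 6 wounds. Its log2 change of -1.56 (SE 0.29) did not pass, with an adjusted p of 0.0818. Ciita met the filter on low values only with control day 6, where it is high, since irradiated replicates 1 and 3 were below 1 FPKM. The groups did not overlap in Ciita, H2-DMa or H2-DMb1, whose changes of -1.55 and -1.40 also missed the threshold. Ctss, a protease that trims the invariant chain and is also made by macrophages, was the list's exception, at 376, 349 and 328 FPKM against 252 and 253 FPKM. Class II genes lay below every control stage shown. The mean log2 level of the 9 genes was 3.92 to 4.70 in irradiated day 9 wounds, 5.19 and 5.70 in control day 3 wounds, 6.08 and 6.15 at control day 6, and 5.38 to 6.47 at control day 9. Against control day 9, 7 of the 9 were lower (2.46% of all genes were), and the change between control day 9 and control day 6 passed in none of the 9 (2.92% of all genes did).

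Promoters of 2 class II genes are shown because these genes carry the largest falls among the genes that passed. Class II promoters are known for a conserved upstream module whose Y box holds the pentamer CCAAT, read on either strand. From RefSeq, with coordinates on GRCm38.p6 and the gene's own strand 5′ to 3′, with CCAAT or its reverse complement in capitals, the sequences before the start site are as follows, H2-Aa at chr17:34287824-34287943 (minus strand) and H2-Eb1 at chr17:34305747-34305866 (plus strand).
H2-Aa: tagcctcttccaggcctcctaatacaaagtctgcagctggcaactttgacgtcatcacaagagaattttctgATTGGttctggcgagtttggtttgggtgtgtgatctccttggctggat
H2-Eb1: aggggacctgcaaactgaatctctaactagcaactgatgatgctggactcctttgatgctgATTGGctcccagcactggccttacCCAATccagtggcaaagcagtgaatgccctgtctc
The pentamer began 48 bases before the start of H2-Aa, and 59 and 35 bases before that of H2-Eb1. Within 250 bases before the start it was found in 5 of the 6 class II genes that the promoter table holds, and in 37.5% of all 27025 genes there. So short a motif is common, and a match is a description of the letters, not of a bound site.

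Other lower genes mark immune cells. Klrb1b, an inhibitory receptor of natural killer cells, had 0.21, 0.29 and 0.45 FPKM in irradiated day 9 wounds, against 4.08 and 3.20 FPKM in control day 6 wounds, and fell by 1.81 on the log2 scale (SE 0.18, adjusted p = 0.00193). Mcpt8, a protease of basophils, had 0.40, 0.33 and 0.17 FPKM against 2.40 and 2.17 FPKM, and fell by 1.34 (SE 0.13, adjusted p = 0.00193). Both control day 6 libraries were far above the irradiated ones in each gene. Flt3, a receptor that dendritic cell precursors need, had 0.11, 0.09 and 0.09 FPKM against 1.34 and 1.19 FPKM, and fell by 1.05. Cd7, a surface protein of T and natural killer cells, had 0.64, 0.68 and 0.75 FPKM against 2.84 and 2.21 FPKM, and fell by 1.06. Klri1, another killer cell lectin-like receptor, fell by 0.91. All 5 genes lie at low levels, where log2(FPKM + 1) understates changes. In each, every irradiated library was below 1 FPKM, so the gene met the filter on low values only through control day 6, where it is high. They are outside the rule for named genes, with means under 5 FPKM, and are named because they passed. Rogdi, whose protein associates with the vacuolar proton pump, had 2.54, 2.60 and 2.94 FPKM in irradiated day 9 wounds, against 5.54 and 5.76 FPKM in control day 6 wounds, and fell by 0.85 (adjusted p = 0.0143).

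Of these genes Mcpt8 and Cd7 were lower at control day 9 than at control day 6. Both met the filter and passed by being high in control day 6, which favours such a fall. The comparisons with control day 6 given here are therefore not independent tests. Mcpt8 averaged 0.983 ± 0.232 FPKM in control day 9 wounds (SD, n = 3), which was lower than control day 6 by 0.73 on the log2 scale (adjusted p = 0.0231). Its irradiated level lay below control day 9 too, by 0.61 (adjusted p = 0.0149). Cd7 averaged 1.38 ± 0.131 FPKM in control day 9 wounds and was lower than control day 6 by 0.56 (adjusted p = 0.043). Klrb1b averaged 3.32 ± 1.01 FPKM in control day 9 wounds, and its change from control day 6 did not pass (adjusted p = 0.722). Klri1 was higher at control day 9 than at control day 3 by 0.55 (adjusted p = 0.0249).

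The wider cell type lists moved less. Of 15 genes tested among Langerhans and dendritic markers outside class II, 8 lay below both control libraries (10.8% of all genes did) and 2 above (16.2% did), 6 had positive changes and only Flt3 passed, with a list median of -0.66. The 2 above were Bst2 (2.03) and Cd86, a costimulatory ligand gene (0.21). Ccr7, the receptor that guides dendritic cells to lymph nodes, had 0.70, 0.53 and 0.43 FPKM in irradiated day 9 wounds, against 3.65 and 3.21 FPKM in control day 6 wounds (log2 change -1.51, adjusted p = 0.162). Like Flt3, Ccr7 met the filter on low values only through control day 6, where it is high. Both are among the 8 genes below. Cd207, the langerin gene of Langerhans cells, had 0.74, 2.39 and 1.73 FPKM against 3.81 and 5.12 FPKM (change -1.10, adjusted p = 0.194). With Bst2, an interferon-induced gene, left out, the list's summed level was 142 to 177 FPKM in irradiated day 9 wounds and 178 to 179 FPKM in control day 6 wounds. The T and cytotoxic cell list summed to 113 to 127 FPKM against 108 to 128 FPKM, so its total overlapped. Of its 18 tested genes, 8 lay below both controls (10.8% of all genes did) and 4 above both (16.2% did). Its median was -0.41, or -0.25 without control day 6 replicate 1. The 12 genes of the B cell list, of which 2 passed the filter on low values, summed to 8.05 to 15.4 FPKM against 18.6 to 35.8 FPKM. Ms4a1, a B cell surface marker gene, was near 0 in both groups, at 0 to 0.03 FPKM against 0.01 to 0.02 FPKM. No marker of these 3 lists was at 0 in every library of a group. Their part in the class II result was not tested.

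Among the 9 higher genes, 3 are p53 targets. Zmat3, an RNA-binding protein gene, had 5.30, 5.07 and 5.22 FPKM in irradiated day 9 wounds, against 2.24 and 3.31 FPKM in control day 6 wounds, and rose by 0.73 on the log2 scale (SE 0.10, adjusted p = 0.0173). Aen, a nuclease that acts in apoptosis, had 7.76, 8.0 and 8.18 FPKM against 4.51 and 5.50 FPKM, and rose by 0.58 (SE 0.09, adjusted p = 0.0237). Dcxr, a reductase of sugars and dicarbonyls that is on the p53 list used here, had 15.3, 13.9 and 17.6 FPKM against 7.97 and 9.81 FPKM, and rose by 0.75 (adjusted p = 0.0444). The irradiated libraries were close together in Zmat3 and Aen and clear of both controls. Without control day 6 replicate 1 the changes were 0.52, 0.47 and 0.62 and none passed.

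Of 32 p53 targets tested, these 3 rose (0.0643% of all genes did) and none fell (0.0785% did). In 20 the irradiated libraries lay above both control libraries (16.2% of all genes did) and in 4 below both (10.8% did). The median change was 0.38, against 0.03 over all genes. The 4 below were Plk3 (-0.80), a stress-responsive kinase gene, Gadd45a (-0.65), Btg2 (-0.43) and Perp (-0.25). In summed level the list was no higher, at 2148 to 2298 FPKM in irradiated day 9 wounds and 2213 to 2611 FPKM in control day 6 wounds. Phlda3, an inhibitor of AKT signalling, had 75.9, 79.8 and 82.0 FPKM in irradiated day 9 wounds, against 56.3 and 53.01 FPKM in control day 6 wounds (change 0.53, adjusted p = 0.0603). Cdkn1a, which encodes the cell cycle inhibitor p21, had 140.5, 127 and 134 FPKM against 94.8 and 80.9 FPKM (change 0.60, adjusted p = 0.393). Ccng1, the cyclin G1 gene, had 80.6, 73.0 and 73.2 FPKM against 48.0 and 58.2 FPKM (change 0.51, adjusted p = 0.244). In these genes, as in Mdm2, the p53 ubiquitin ligase gene (change 0.35, or 0.22 without control day 6 replicate 1), every irradiated library was above both controls. Eda2r, a receptor of the tumour necrosis factor family, overlapped (change 0.25, or 0.14 without that library). Gtse1, a regulator of p53 in the cell cycle (change 0.84), and Gdf15, a stress-induced cytokine (0.93), had adjusted p values of 0.0603 and 0.0622. The mean log2 level of the 32 genes was 3.81 to 3.88 in irradiated day 9 wounds, above control day 3 (3.62 and 3.64), control day 6 (3.50 and 3.57) and control day 9 (3.34 to 3.43).

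The other higher genes have mixed roles. Ccnd2, encoding cyclin D2 of the G1 phase, had 16.1, 14.8 and 15.1 FPKM in irradiated day 9 wounds, against 5.78 and 9.21 FPKM in control day 6 wounds, and rose by 0.97 (SE 0.16, adjusted p = 0.0472). It also rose in the control course, to 16.6 ± 2.73 FPKM at control day 9 (n = 3), a change of 1.07 over control day 6 (adjusted p = 0.0163), and irradiated day 9 against control day 9 gave -0.10 (adjusted p = 0.723). Ddit3, the stress transcription factor CHOP, had 14.4, 12.1 and 13.2 FPKM against 7.10 and 8.59 FPKM, and rose by 0.69. Mgmt, which repairs alkylated guanine, had 3.45, 3.51 and 4.04 FPKM against 1.49 and 2.22 FPKM, and rose by 0.72. Unlike Ccnd2, these genes held the same direction against control day 9, at 0.52 for Ddit3 (adjusted p = 0.0195) and 0.73 for Mgmt (adjusted p = 0.00599). The comparisons of these 3 genes reuse the irradiated or control day 6 libraries by which the genes passed, so they are not independent. Between control day 9 and control day 3, which did not choose it, Ccnd2 rose by 0.86 (adjusted p = 0.00559). Angptl8, a secreted regulator of lipoprotein lipase, had 2.28, 3.16 and 3.40 FPKM in irradiated day 9 wounds, against 0.62 and 0.40 FPKM in control day 6 wounds, and rose by 1.38 (adjusted p = 0.0298). Aaas, a nuclear pore protein gene, rose by 0.56 and Smyd5, a SET-domain methyltransferase gene, by 0.49. Angptl8, Mgmt and Smyd5 are outside the rule for named genes. Angptl8 met the filter on low values only through irradiated day 9, where it is high.

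Interferon-induced genes stood above the control level as a list, while no gene of it passed the test. The list was chosen with earlier results of these data known. All 38 lay above both control day 6 libraries (16.2% of all genes did). Their changes ran from 0.55 (Ifi35) to 2.57 (Ifit3), with a median of 1.51, against 0.03 over all genes. All 38 had an unadjusted p under 0.05 (9.33% of all genes did), and their adjusted p values ran from 0.129 (Oasl1) to 0.497 (Parp9). The same libraries set against control day 9 gave 29 of 38 higher (2.31% of all genes were), and against control day 3 gave 1 (0.257%). The median changes there were 1.66 and 1.48. The change between control day 9 and control day 6 passed in none of the 38 (2.92% of all genes did).

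The irradiated libraries differed among themselves in these genes. Ifit1, an antiviral RNA-binding protein gene, had 74.3, 30.3 and 48.5 FPKM in irradiated day 9 wounds, against 8.29 and 6.80 FPKM in control day 6 wounds (change 2.52, SE 0.59, adjusted p = 0.192). Ifit3, its partner, had 163, 61.7 and 123 FPKM against 17.6 and 16.9 FPKM (change 2.57, SE 0.64, adjusted p = 0.204). Isg15, a ubiquitin-like modifier gene, had 235.6, 63.5 and 125 FPKM against 27.7 and 21.9 FPKM (change 2.28, SE 0.69, adjusted p = 0.303). Replicate 1 was highest and replicate 2 lowest in each, the reverse of their order in class II genes. Irf7, the factor that amplifies interferon production, followed the same order with 123.8, 35.9 and 80.1 FPKM against 11.5 and 8.84 FPKM (change 2.70, adjusted p = 0.167). Siglec1, an interferon-responsive receptor of macrophages, had 24.0, 18.3 and 32.2 FPKM against 3.34 and 5.27 FPKM (change 2.27, adjusted p = 0.191). Irf7, Siglec1 and the list members given here were chosen after their values were seen.

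**Figure D4:**
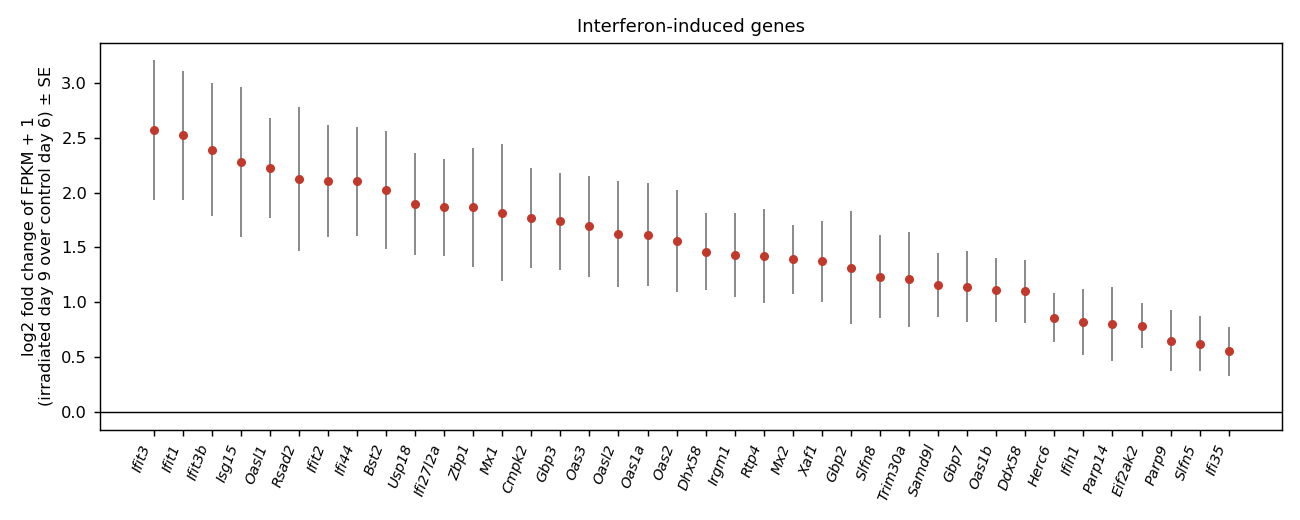
Log2 fold change of FPKM + 1, irradiated day 9 over control day 6, for the 38 interferon-induced genes tested (points) with the standard error of the limma fit (lines). All 38 lie above 0, between 0.55 and 2.57, and none has an adjusted p under 0.05.

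The promoters of 3 of these genes are shown because interferon-induced genes share a known element, the interferon-stimulated response element, whose core was searched as TTTC, any 2 bases and TTTC again, on both strands. The sequences are from RefSeq on GRCm38.p6, 5′ to 3′ on the gene's own strand up to the start site, with the core or its reverse complement in capitals. Ifit1 is at chr19:34640769-34640888 (plus strand), Ifit3 at chr19:34583359-34583528 (plus strand) and Isg15 at chr4:156200819-156200918 (minus strand).
Ifit1: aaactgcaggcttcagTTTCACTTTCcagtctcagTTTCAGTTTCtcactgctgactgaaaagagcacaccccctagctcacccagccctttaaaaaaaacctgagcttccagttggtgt
Ifit3: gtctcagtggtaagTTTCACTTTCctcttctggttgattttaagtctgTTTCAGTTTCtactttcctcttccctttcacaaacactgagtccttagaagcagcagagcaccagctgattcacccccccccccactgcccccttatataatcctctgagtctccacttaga
Isg15: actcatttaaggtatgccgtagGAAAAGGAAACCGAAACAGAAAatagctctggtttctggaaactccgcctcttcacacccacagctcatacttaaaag
The core began 104 and 85 bases before the start of Ifit1 and 156 and 122 bases before that of Ifit3. In Isg15 it occurred as 3 overlapping copies that began 78, 72 and 66 bases before the start. Within 250 bases before a start it was found in 15 of the 27 list genes in the promoter table, which is 55.6%, and in 3.46% of all 27025 genes there.

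Genes of the cell cycle lay a little above control day 6 and below control day 3. All 29 DNA replication genes tested had positive changes (7953 of all 14004 genes did), 23 of them above both control libraries (16.2% of all genes were), with a median of 0.28, and all 30 mitosis genes were positive, 25 above both, with a median of 0.30. None passed the test in either list. Mcm5, a subunit of the replicative helicase, had 14.5, 14.5 and 16.0 FPKM in irradiated day 9 wounds, against 11.2 and 10.6 FPKM in control day 6 wounds (change 0.43, adjusted p = 0.532). Aurkb, a mitotic kinase gene, had 6.998, 7.89 and 6.87 FPKM against 4.88 and 4.65 FPKM (change 0.52, adjusted p = 0.482). The mean log2 level of the replication genes was 2.97 to 3.04 in irradiated day 9 wounds, 3.21 and 3.25 in control day 3 wounds, 2.68 and 2.76 at control day 6, and 2.68 to 2.93 at control day 9. Without control day 6 replicate 2 the mitosis median was 0.18.

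**Figure D5:**
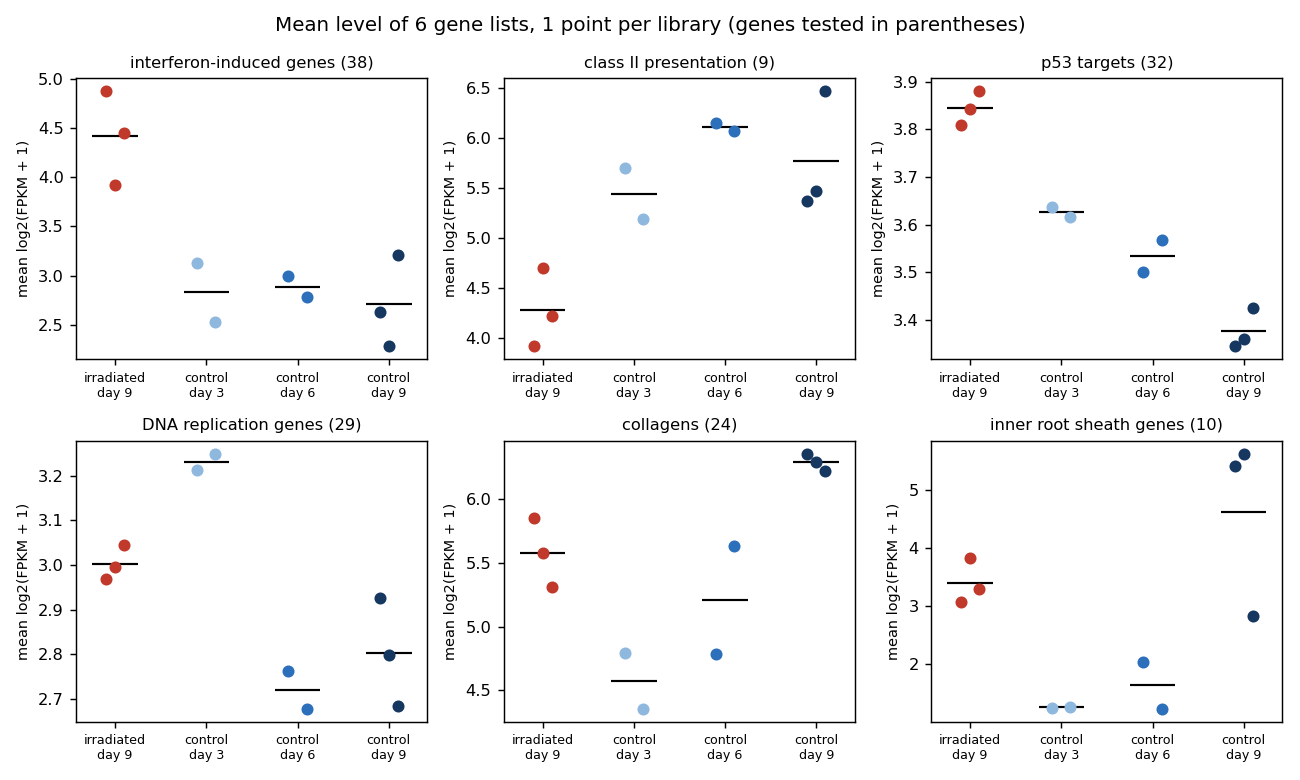
Mean log2(FPKM + 1) of 6 gene lists in each library (points) with group means (bars), irradiated day 9 and control days 3, 6 and 9. Interferon-induced genes and p53 targets are highest and class II genes lowest in irradiated day 9, while collagens lie between control day 3 and control day 9 levels.

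Inner root sheath keratins lay above control day 6 in the irradiated day 9 libraries without passing the test. Inner root sheath genes encode keratins and the matrix proteins of the layer that moulds a growing hair, and are expressed in follicles in growth. Of 10 tested, 7 had positive changes and 6 lay above both control day 6 libraries (16.2% of all genes did), none passed, and the median change was 1.94, against 3.31 for control day 9 over control day 6, where 5 of 10 passed (2.29% of all genes were higher). Krt71 had 15.3, 44.1 and 15.9 FPKM in irradiated day 9 wounds, against 1.60 and 0.09 FPKM in control day 6 wounds (change 3.78, SE 0.94, adjusted p = 0.208). Krt25 had 14.1, 35.7 and 16.1 FPKM against 1.31 and 0.17 FPKM (change 3.68, adjusted p = 0.21). Krt27 had 6.22, 17.05 and 7.04 FPKM against 1.38 and 0.24 FPKM (change 2.56, adjusted p = 0.337). In all 3 keratins irradiated replicate 2 was highest and no library overlapped with control day 6. Krt28 (2.90) and Krt73 (3.29), inner root sheath keratins as well, had the same order of groups. Of 3 hair shaft keratins tested 1 had a positive change, Krt35 (2.31), and their median was -0.14, or 0.23 without control day 6 replicate 1. Krt28, Krt73 and Krt35 met the filter on low values only through irradiated day 9, where they are high. Krt71, Krt25 and Krt27 needed irradiated day 9 as well, since replicate 2 of control day 6 was below 1 FPKM in each. The counts and medians of these lists share this limit. Control day 9 was uneven, with Krt71 at 244.7, 332 and 21.2 FPKM, and irradiated day 9 against it gave -2.40 (adjusted p = 0.118).

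The genes that changed along the control course passed the test about as rarely as genes overall. Of the 1062 that rise there, 1 was higher and 2 were lower, and of the 1479 that fall, 2 were higher and none lower, with median changes of 0.13 and -0.02. These 5 of 2541 genes are 0.197%, against 0.143% of all genes. Of the 5 genes that rose most between control days 3 and 9, the hair keratins Krt71, Krt25 and Krt27 lay above both control day 6 libraries, as given above (16.2% of all genes did). Tnn and Prss35 overlapped. None of the 5 passed. Tnn, tenascin W of new connective tissue, had 36.0, 20.5 and 4.41 FPKM in irradiated day 9 wounds, against 5.83 and 17.1 FPKM in control day 6 wounds (change 0.55, or -0.16 without control day 6 replicate 1, adjusted p = 0.802). Prss35, a serine protease gene, had 34.5, 40.2 and 8.17 FPKM against 11.96 and 42.0 FPKM (change 0.01, or -0.86 without that library, adjusted p = 0.997). Both were lower in irradiated day 9 than in control day 9, at -2.35 (adjusted p = 0.0384) and -2.99 (adjusted p = 0.0272). Both were chosen for their rise to these same control day 9 libraries, which favours a lower irradiated level, so this is not an independent test.

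Of the 5 genes that fell most along the control course, 4 did not overlap between irradiated day 9 and control day 6, and none passed. Serpina3n and Prg4 lay above (16.2% of all genes did) and Cxcl2 and Elovl3 below (10.8% did). Serpina3n, an acute-phase protease inhibitor gene, had 162, 154 and 215 FPKM in irradiated day 9 wounds, against 55.4 and 79.4 FPKM in control day 6 wounds (change 1.39, adjusted p = 0.495). Its control day 3 level was 121 and 154 FPKM and its control day 9 level 6.71 to 18.3 FPKM, so irradiated day 9 wounds overlapped the day 3 level and were higher than control day 9 by 3.86 (adjusted p = 0.00491). Serpina3n was chosen for its fall to control day 9, which favours such a difference, so this is not an independent test either. Prg4, the lubricin gene, had 27.1, 12.7 and 16.5 FPKM against 4.43 and 7.54 FPKM (change 1.47, adjusted p = 0.63), and 26.6 FPKM in each control day 3 library. Cxcl2, a neutrophil chemokine, ran the other way, with 21.6, 13.9 and 11.4 FPKM in irradiated day 9 wounds, against 155 and 102 FPKM in control day 6 wounds (change -2.98, adjusted p = 0.367). Its irradiated level overlapped control day 9 (1.67 to 51.1 FPKM). Ankrd2, a stress-responsive muscle gene, and Elovl3, a fatty acid elongase of sebaceous glands and fat, had changes of 0.11 (-0.20 without control day 6 replicate 1) and -0.67.

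No collagen or matrix gene passed the test against control day 6. Of 24 collagens tested, 22 had positive changes over control day 6, none passed and the median was 0.39, but without control day 6 replicate 1 the median was -0.03. Col1a1 had 2829, 1846 and 1328 FPKM in irradiated day 9 wounds, against 665 and 1713 FPKM in control day 6 wounds (change 0.84, SE 0.56, adjusted p = 0.671), and the change was 0.16 without that library. Col3a1 (0.49, or -0.08) and Postn (0.28, or -0.21), the periostin gene, overlapped between the groups in the same way. Of 35 matrix and proteoglycan genes none passed (median 0.48, or 0.06 without that library). Against control day 9 the medians were -0.99 for collagens and -0.65 for matrix genes, with 1 gene lower in each list (2.46% of all genes were) and 1 higher among matrix genes (2.31% were). In the control course 16 of 24 collagens were higher at control day 9 than at control day 3 (7.58% of all genes were).

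No gene of the TGF-beta pathway, which drives fibroblasts to make matrix and is named in the title of the study, passed the test against control day 6. Of 31 ligands, receptors and SMADs tested, 9 lay above both control libraries (16.2% of all genes did) and 1 below (10.8% did), with a median of 0.18, or 0.04 without control day 6 replicate 1. Tgfb1 had 20.4, 16.4 and 17.7 FPKM in irradiated day 9 wounds, against 13.2 and 16.1 FPKM in control day 6 wounds. All 3 irradiated libraries were above, by little in replicate 2, and the log2 change was 0.29 (SE 0.30, 95% interval -0.35 to 0.93, adjusted p = 0.773), or 0.16 without that library. Tgfbr2, the ligand-binding receptor, had 56.2, 44.2 and 46.4 FPKM against 21.3 and 35.5 FPKM (change 0.80, SE 0.30, adjusted p = 0.429), or 0.45 without it. Tgfb2 (0.08), Tgfb3 (0.02) and Tgfbr1, the signalling receptor, overlapped between the groups. So did the signal transducers Smad3 (0.08) and Smad4 (0.15), while Smad2 (0.15) and Smad7 (0.29), an inhibitor, lay above without passing. Without control day 6 replicate 1 the change was negative in Tgfb2, Tgfb3, Smad3 and Smad4. Tgfb2 was higher in control day 9 than in control day 6 by 0.98 (adjusted p = 0.0263) and lower in irradiated day 9 than in control day 9, at -0.90 (adjusted p = 0.0119).

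Inflammatory genes did not move as a block. Of 20 acute-phase and complement genes, 15 lay above both control libraries (16.2% of all genes did) and 1 below, none passed and the median was 0.93. C3, the central complement component, had 96.5, 93.6 and 160.7 FPKM in irradiated day 9 wounds, against 42.2 and 44.4 FPKM in control day 6 wounds (change 1.37, adjusted p = 0.606). Of 17 monocyte chemokines and receptors, 9 lay above both control libraries (16.2% of all genes did) and 5 below (10.8% did), none passed and the median was 0.59. The monocyte chemokines Ccl2 and Ccl7 lay above, with Ccl2 at 105, 41.7 and 47.5 FPKM against 14.9 and 8.23 FPKM (change 2.32, adjusted p = 0.307) and a change of 2.26 for Ccl7. Ccr2, the receptor for both on monocytes, lay below, with 2.55, 4.49 and 2.07 FPKM against 16.1 and 13.2 FPKM (change -1.99, adjusted p = 0.251). Ccl4, a chemokine that binds another receptor, also lay below (-1.87).

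Macrophage markers had a median of 0.63 over 28 genes (0.35 without control day 6 replicate 1), with 14 above both control libraries (16.2% of all genes were), 2 below (10.8% were), 21 positive and none past the threshold. The changes ran from -1.58 (Cd14, a receptor for bacterial lipopolysaccharide) to 1.54 (Folr2, a folate receptor of resident macrophages). Cd68 had 137, 105 and 126 FPKM in irradiated day 9 wounds, against 47.3 and 77.1 FPKM in control day 6 wounds (change 1.0, or 0.66 without that library, adjusted p = 0.467). Adgre1, which encodes F4/80, had a change of 0.81, or 0.43. Mmp12, the macrophage elastase gene, which is on the metalloproteinase list, had 43.2, 42.5 and 20.6 FPKM against 4.38 and 6.85 FPKM (change 2.42, adjusted p = 0.298). The summed level of the 30 markers was 4173 to 4630 FPKM in irradiated day 9 wounds and 2638 to 3695 FPKM in control day 6 wounds, with no overlap and the opposite direction to class II genes.

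The neutrophil list could not be placed, because the 2 control day 6 libraries summed to 2369 and 20258 FPKM on either side of the irradiated 4502 to 6177 FPKM. Its median was -0.44, and 0.43 without control day 6 replicate 1. Of 12 mast cell genes tested, 9 had positive changes, 1 lay above both control libraries (16.2% of all genes did) and 3 below (10.8% did). The list's median was 0.515, or 0.125 without control day 6 replicate 1, and 1 gene passed, as lower (0.0785% of all genes did). Cma1 and Mcpt4, proteases of skin mast cells, had changes of 1.13 and 0.87 with overlap (0.64 and 0.42 without control day 6 replicate 1). Hdc, the enzyme that makes histamine in mast cells, basophils and neutrophils, had 8.09, 3.41 and 3.37 FPKM in irradiated day 9 wounds. Control day 6 wounds held 19.7 and 16.0 FPKM (change -1.74, adjusted p = 0.422).

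The remaining tissue lists had no gene past the threshold against control day 6. Adipocyte genes had a median of -0.06 over 23 genes, or -0.32 without control day 6 replicate 1 and 0.30 without replicate 2, and Adipoq, the adiponectin gene, had 30.3, 55.7 and 89.9 FPKM in irradiated day 9 wounds, against 28.1 and 60.2 FPKM in control day 6 wounds (change 0.37, or -0.17 without replicate 1). Hypoxia and glycolysis genes had a median of 0.10 over 28 genes, or 0.37 without replicate 1 and -0.03 without replicate 2. Slc2a1, the glucose transporter gene, had 75.0, 69.8 and 88.1 FPKM against 75.0 and 43.8 FPKM (change 0.42, or 0.80 without replicate 1). Set against control day 9, the same lists had 11 of 28 hypoxia genes and 3 of 23 adipocyte genes higher (2.31% of all genes were), with medians of 0.59 and 1.05. For Slc2a1 the change against control day 9 was 1.12 (adjusted p = 0.0152) and for Adipoq 2.53 (adjusted p = 0.0193).

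Wound-edge keratinocyte genes had a median of -0.02 over 29 genes, on controls that disagreed (0.69 without control day 6 replicate 1 and -0.63 without replicate 2). Muscle regeneration genes had a median of -0.86, with 8 of 12 below both control libraries (10.8% of all genes were), and the median was -0.55 without irradiated replicate 1. Skeletal muscle genes lay lower as well, with 1 of 22 positive and a median of -0.46, or -0.76 without control day 6 replicate 1. Their summed level was 1888 to 3954 FPKM in irradiated day 9 wounds and 3917 to 5657 FPKM in control day 6 wounds, and its part in the regeneration genes was not tested. Myog, a muscle differentiation factor gene, had 6.86, 9.14 and 12.7 FPKM in irradiated day 9 wounds, against 19.1 and 25.1 FPKM in control day 6 wounds (change -1.15, adjusted p = 0.545). Its irradiated level overlapped that of control day 9 (3.33 to 9.92 FPKM). Ptn, the pleiotrophin growth factor gene, had 20.2, 24.2 and 20.8 FPKM in irradiated day 9 wounds, against 11.6 and 22.5 FPKM in control day 6 wounds (change 0.40, or -0.05 without control day 6 replicate 1, adjusted p = 0.752). Control day 9 wounds held 80.0 to 146 FPKM, and irradiated day 9 was lower than these by 2.38 on the log2 scale (adjusted p = 0.00559).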

How the data were processed

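RNA of whole mouse skin was sequenced as paired-end Smart-Seq2 libraries, per the labels' protocols. The authors deposited 1 table of FPKM for 34140 genes and 17 libraries. Alignment used HISAT2 2.2.1 and build mm10, per the submitters' processing notes. For the counting tool and annotation, the sources used here give nothing. With GENCODE M21 exon lengths, 31476 genes gave whole fragments in every library and a fitted length did so for 2664 more (100% of nonzero values within 0.01 fragments). This recovered 25440773 to 30797409 assigned fragments per library.

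Genes with at least 1 FPKM in at least 2 of the 5 libraries of irradiated day 9 and control day 6 were kept (14004, of which 12603 protein coding). Values were log2(FPKM + 1), and this pseudocount of 1 shrinks changes of low genes. All 17 libraries in 7 groups entered 1 limma 3.58.1 fit (R 4.3.3) with an intensity trend, tested on simulated data first. P-values were adjusted by Benjamini-Hochberg over the 14004 genes, with a threshold of 0.05. No library was dropped. Fragment totals set counting error only.

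Genes were named by this rule: the 12 highest and 12 lowest protein-coding genes past the threshold with a mean of at least 5 FPKM in the higher group and no overlap, up to 5 members past the threshold of each list with at least 2, 14 genes of TGF-beta and p53 signalling, and the 5 genes that rose and the 5 that fell most between control days 3 and 9. The rule found 6 and 5 genes in its first part. Other genes named were chosen after their values were seen. The members and lists (44 lists, 924 genes, 922 of them in the table) were chosen with earlier results of these data known. Alternatives covered the pseudocount, low-value filter, scaling, libraries fitted, weights, replicate block, a fit to recovered fragments and each replicate of the groups compared left out. For the axis position only replicates of control day 3 and control day 9 were left out. Sequences came from RefSeq promoter windows of 250 bases before the start.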

Additional observations from a re-analysis of the deposited data

How the results depend on the processing

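The mean position of irradiated day 9 on the control axis stayed between 0.47 and 0.58 in every setting run, and control day 6 below it. For this position only replicates of control day 3 and control day 9 were left out. No irradiated day 9 or control day 6 library was, and single irradiated libraries lay at 0.382 to 0.652. Counts moved more. Against control day 6 the 20 genes became 11 with a pseudocount of 0.1, 40 with no filter on low values, 10 with a minimum of 5 FPKM, 13 with FPKM rescaled to nuclear genes, 8 with array quality weights, 12 with limma-voom on recovered fragments and 10 with an absolute log2 change of at least 1. A fit to the 5 libraries alone gave 0 in limma (1307 with an unadjusted p under 0.05), and leaving out 1 replicate gave 0 to 9. The share that was higher, 45%, was 33.3% under median-of-ratios scaling, 32.1% under quantile normalization and 30.8% under nuclear rescaling. Against control day 9 the 668 genes became 377 (minimum 5 FPKM), 1120 (quantile), 1005 (no day 0 libraries), 5254 (array weights), 223 (log2 change of at least 1) and 85 to 697 (1 replicate left out), and the higher share of 48.4% was 33.5% under quantile and 32% under nuclear rescaling. Against control day 3 the 58 genes became 36 (no filter), 37 (minimum 5 FPKM), 118 (median-of-ratios), 115 (quantile), 164 (only the groups compared), 165 (no day 0 libraries), 1621 (array weights), 27 (limma-voom) and 1 to 25 (1 replicate left out). Settings changed the median of all genes by less than 0.1. The causes were not tested.

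Numbers shared by the groups had deviations correlated at 0.138 and 0.181 over 2 pairs, so they count as numbers only. The replicate block gave 18 genes.

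Genes whose direction against control day 6 turned had not passed. In log2 change, Tgfb3 was -0.019 under median-of-ratios and -0.0437 under quantile normalization, and Prss35 -0.0258 and -0.0542. Tgfbr1 was 9.84e-05 with a pseudocount of 0.1, 0.0683 with nuclear rescaling, 0.0122 with the replicate block, 0.00945 with array weights and 0.00143 with limma-voom. Leaving out 1 replicate gave -0.212 to 0.367 for Tgfb2, -0.319 to 0.353 for Tgfb3, -0.124 to 0.123 for Tgfbr1, -0.102 to 0.266 for Smad3, -0.0185 to 0.326 for Smad4, -0.156 to 1.34 for Tnn, -0.856 to 0.874 for Prss35, -0.202 to 0.698 for Ankrd2, -0.0845 to 1.07 for Col3a1, -0.207 to 0.767 for Postn, -0.169 to 0.903 for Adipoq and -0.0495 to 0.849 for Ptn.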
